A study of Mus musculus with 21 samples.

Results

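The genes described here are 9 that handle apolipoprotein E (APOE) and the lipid it carries: the receptors Lrp1, Lrp8, Vldlr and Sorl1, the transporters Abca1, Abcg1 and Abca7, the chaperone Clu and the enzyme Lcat. They were chosen by symbol, matched to their Ensembl identifiers among the 55401 genes of the deposited tables, and all 9 were found. Forebrain RNA was sequenced from 21 mice in 6 groups. The parental groups E2H, E3H and E4H held 3 mice each, on a C57BL6 background and 9 to 10 months old, in which both copies of mouse Apoe are replaced by human APOE2, APOE3 or APOE4. The PS19 groups held 4 mice each (PS/E2H, PS/E3H and PS/E4H) that were homozygous for the same human alleles and also carried 1 copy of the PS19 transgene, human tau with the P301S mutation, from a line on a mixed B6/C3H background. PS19 mice were killed at hindlimb paralysis, so tau genotype, paralysis, age and background cannot be told apart. The paper reports that PS/E3H mice reached paralysis later than PS/E2H and PS/E4H mice. Among PS19 mice, APOE allele and age therefore cannot be told apart either. No group kept mouse Apoe intact, and none carried tau without a human APOE allele. The sexes were not balanced, with 1 female among the E4H mice, 1 among the PS/E2H mice and 2 among the PS/E4H mice, and the labels do not say which mice these were.

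APOE is secreted mainly by astrocytes as a lipoprotein particle. Abca1 and Abcg1 load the particle with cholesterol and phospholipid, Lcat esterifies its cholesterol, and clusterin, the product of Clu, forms lipoprotein particles of its own. Receptors of the LDL receptor family, among them Lrp1, Lrp8 and Vldlr, bind and take up the particles, and Lrp8 and Vldlr also transmit the reelin signal in neurons. Sorl1 is a sorting receptor that returns cargo such as the amyloid precursor protein from endosomes, and Abca7 is a phospholipid transporter related to Abca1. Liver X receptors, which sense oxysterols, switch on Abca1 and Abcg1.

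Total counts ran from 59265459 to 75932183 per mouse, and the labels give no batch. Reads assigned to mouse Apoe, the replaced gene, gave 5.75 ± 0.537 FPKM (SD, n = 9) in parental and 5.87 ± 0.864 FPKM (SD, n = 12) in PS19 mice. The authors aligned reads to the mouse genome, so this value is not a measure of human APOE. Which reads it holds was not tested. Markers of microglia summed to 231.6 to 320.1 FPKM in parental mice and 434.9 to 894.0 FPKM in PS19 mice, with 9 of 10 markers higher by the pooled test. For astrocytes the sums were 529.1 to 641.3 and 823.0 to 1264.7 FPKM, with 10 of 10 higher. Of 10 neuronal markers, 2 were higher and 5 lower, and 5 of 10 oligodendrocyte, 5 of 8 endothelial and 3 of 8 choroid plexus markers were higher with none lower. Oligodendrocyte precursor and ependymal markers had 1 of 5 higher each, and of 4 pituitary markers tested 1 was higher and 1 lower. E2H mouse 2 stood apart: its long transcripts were low against its short ones.

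Levels of 1 gene are compared between mice as CPM, counts scaled to the TMM-adjusted size of the library. Levels of different genes are compared as FPKM, which divides by transcript length.

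On the FPKM scale Clu was by far the most abundant of the genes, with a mean of 333.7 FPKM over the 21 mice. Sorl1 followed at 21.02, Lcat at 16.3, Lrp1 at 15.4 and Abcg1 at 10.9 FPKM. Vldlr was at 6.39, Abca1 at 5.86, Lrp8 at 3.81 and Abca7 at 2.27 FPKM. The order was not the same with and without tau, since Abca1 stood at 3.07 FPKM in parental mice, below Lrp8 at 4.08, and at 7.95 FPKM in PS19 mice, above Lrp8 at 3.602.

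Across all APOE lines, 4 of the 9 genes passed the test of PS19 against parental mice (edgeR quasi-likelihood test over 21787 genes, adjusted p under 0.05). These were Abca1, Clu, Lcat and Abcg1, and all 4 were higher in PS19 mice. Among all tested genes 22.3% passed, 11.9% higher and 10.4% lower. The median log2 fold change was 0.10 over the 9 genes and -0.0075 over all genes tested. Only Abca1 also passed with a fold of at least 2, as 2.61% of all genes did. None of the receptors passed in this fit on all 21 mice without offsets. In bulk tissue, more cells of a type and more RNA per cell cannot be told apart.

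**Figure D1:**
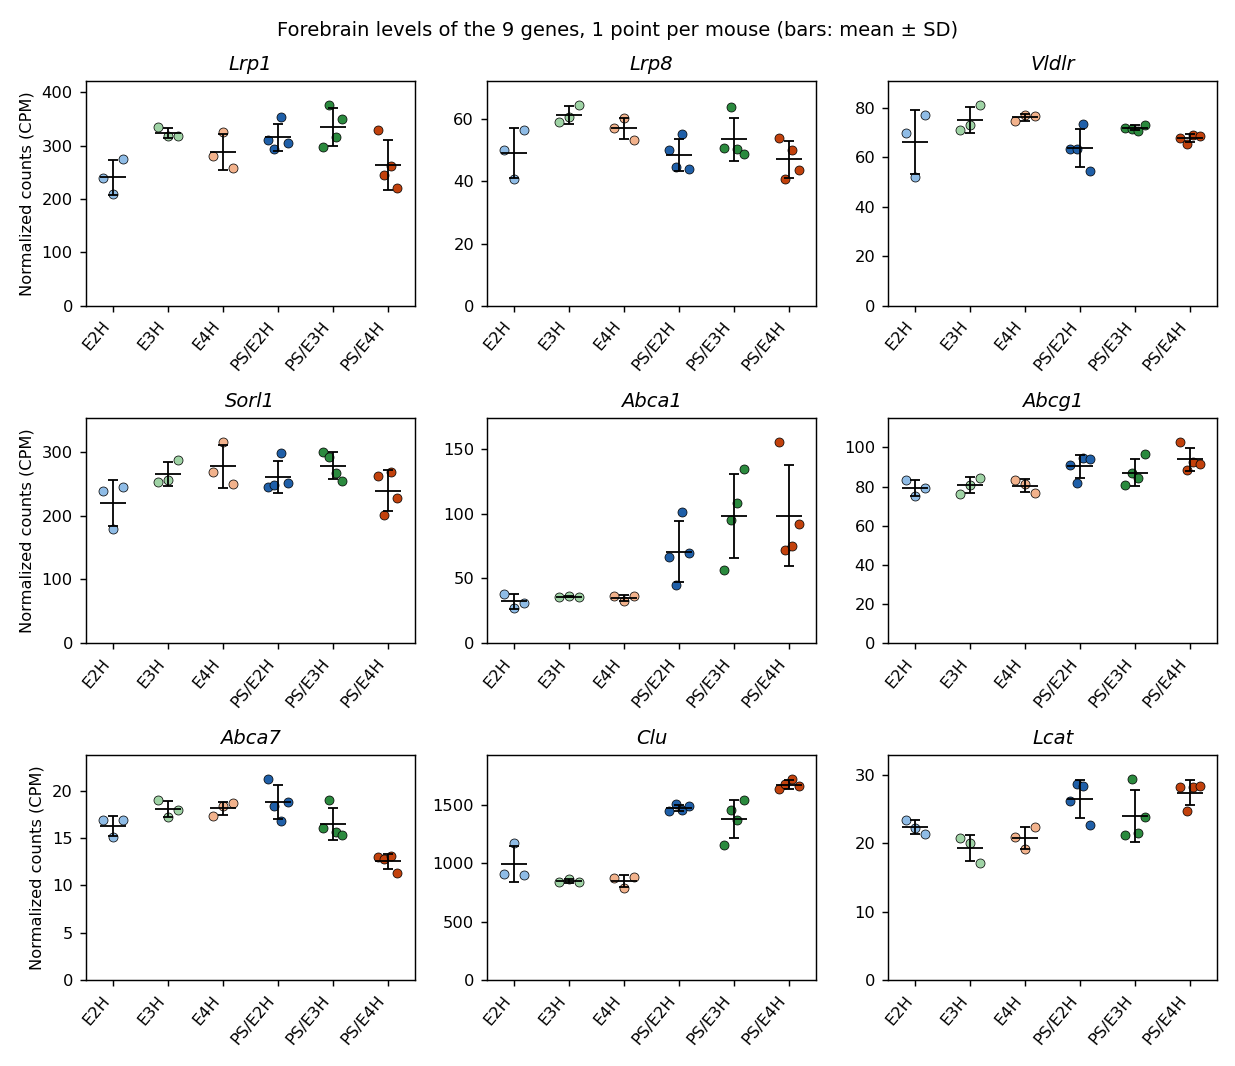
Normalized counts (CPM, linear axes from 0) of each gene in the 6 groups, 1 point per mouse, with bars for mean ± SD (n = 3 parental, n = 4 PS19). Abca1 was at 44.8 CPM or more in each PS19 mouse and at 38.2 CPM or less in each parental mouse, and Abca7 was lowest in PS/E4H mice.

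Abca1 (ENSMUSG00000015243, chr4:53030787-53159895, minus strand, GRCm38), which exports cholesterol and phospholipid to APOE, had the largest change of the 9. In parental mice it lay at 38.2, 27.4 and 31.0 CPM in E2H, at 35.5, 36.5 and 35.4 CPM in E3H and at 36.2, 32.2 and 36.6 CPM in E4H. PS/E2H mice had 66.4, 44.8, 101.5 and 69.9 CPM, PS/E3H mice 56.3, 94.9, 108.5 and 134.2 CPM, and PS/E4H mice 155.2, 72.0, 75.03 and 92.0 CPM. All 12 PS19 mice were above all 9 parental mice, a separation without overlap that 1.62% of tested genes showed, and the PS19 mice spread more widely, from 44.8 to 155.2 CPM. Pooled over lines, Abca1 rose 2.57-fold (log2 fold change 1.36, SE 0.157, adjusted p = 1.60e-06, edgeR).

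The RefSeq promoter window of Abca1 (GRCm38.p6, chr4:53159846-53160145, minus strand, 250 bases before the start and 50 from it on) is shown because Abca1 moved most, and those of Lcat (chr8:105943353-105943652, minus strand) and Abca7 (chr10:79996244-79996543, plus strand) because these also changed in PS/E4H mice. Capitals mark exact matches to GGGCGG, the core of sites bound by SP factors, and to CACGTG, the E-box that SREBP and other helix-loop-helix factors can bind.
Abca1: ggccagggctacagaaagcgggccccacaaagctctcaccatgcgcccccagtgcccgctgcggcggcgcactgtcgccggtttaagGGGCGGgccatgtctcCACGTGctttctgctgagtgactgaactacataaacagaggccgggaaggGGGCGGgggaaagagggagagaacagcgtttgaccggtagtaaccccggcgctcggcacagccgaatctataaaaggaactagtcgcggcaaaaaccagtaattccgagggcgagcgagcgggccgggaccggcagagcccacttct
Lcat: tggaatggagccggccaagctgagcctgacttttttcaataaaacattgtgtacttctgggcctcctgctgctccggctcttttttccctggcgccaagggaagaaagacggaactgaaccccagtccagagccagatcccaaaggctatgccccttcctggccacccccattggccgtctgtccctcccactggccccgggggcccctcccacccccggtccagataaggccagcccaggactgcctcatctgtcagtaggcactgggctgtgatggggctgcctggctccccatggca
Abca7: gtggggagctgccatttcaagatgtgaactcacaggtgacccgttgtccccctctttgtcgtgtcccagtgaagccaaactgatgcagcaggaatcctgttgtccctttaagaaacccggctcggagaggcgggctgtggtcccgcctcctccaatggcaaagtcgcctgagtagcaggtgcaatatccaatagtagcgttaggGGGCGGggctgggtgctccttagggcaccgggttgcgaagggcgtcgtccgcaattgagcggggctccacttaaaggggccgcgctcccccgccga
Counting the start as 0, Abca1 held GGGCGG at -163 and -97 and CACGTG at -147 on the strand shown, with no overlap among them. Abca7 held GGGCGG at -46, and Lcat held neither motif on either strand. A further motif, DR4, which is AGGTCA repeated after 4 bases, is bound by liver X receptors. No window of the genes held it on either strand with at most 2 mismatches. Looser matches and bases outside the windows were not searched, so a DR4 site that departs further from these letters would be missed. Among the 32851 promoters of the table, 35.7% held GGGCGG, 7.15% held CACGTG and 3.02% held DR4. Windows were found for 7 of the 9 genes (11 windows), and Clu and Abcg1 had no entry. Of the receptors, Sorl1 held GGGCGG at -81 and CACGTG at -19 in 1 of its windows, and Lrp1 and Vldlr held GGGCGG on the opposite strand. These are matches of letters, and a window without a match says only that no match within these limits is there.

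Abcg1 (ENSMUSG00000024030, chr17:31057675-31117988, plus strand), which hands cholesterol to particles that Abca1 has begun to load, changed far less. Parental mice had 83.2, 75.2 and 79.0 CPM in E2H, 76.3, 81.0 and 84.5 CPM in E3H and 83.5, 81.1 and 76.8 CPM in E4H. The PS19 values were 91.2, 82.0, 94.4 and 94.0 CPM in PS/E2H, 80.8, 86.8, 84.6 and 96.5 CPM in PS/E3H and 102.7, 88.6, 92.6 and 91.6 CPM in PS/E4H. The groups overlapped, with 10 of 12 PS19 mice above all parental mice. Abcg1 rose 1.13-fold (log2 fold change 0.18, SE 0.041, adjusted p = 0.00328, edgeR). Across the 21 mice log2 CPM of Abca1 and Abcg1 had a Pearson r of 0.86, and of 0.81 after group means were removed. That is a description of mice that share groups and library effects.

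Clu (ENSMUSG00000022037, chr14:65968483-65981547, plus strand), the gene of clusterin, was 907, 1171 and 895 CPM in E2H, 838, 869 and 840 CPM in E3H and 874, 791 and 879 CPM in E4H. In PS/E2H it was 1442, 1505, 1457 and 1486 CPM, in PS/E3H 1155, 1453, 1365 and 1537 CPM and in PS/E4H 1633, 1676, 1716 and 1663 CPM. Here 11 of 12 PS19 mice exceeded every parental mouse, the exception being PS/E3H mouse 1, which lay below E2H mouse 2. Clu rose 1.68-fold (log2 fold change 0.75, SE 0.0629, adjusted p = 2.48e-08, edgeR). Its level went from 240.3 FPKM in parental to 403.7 FPKM in PS19 mice, the largest gain of the 9 genes on the FPKM scale.

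Lcat (ENSMUSG00000035237, chr8:105939551-105943382, minus strand) encodes the enzyme that esterifies cholesterol on APOE particles. It stood at 23.5, 22.2 and 21.4 CPM in E2H, at 20.8, 20.1 and 17.1 CPM in E3H and at 20.9, 19.1 and 22.4 CPM in E4H. PS/E2H mice had 26.2, 28.7, 28.4 and 22.8 CPM, PS/E3H mice 21.3, 29.4, 21.6 and 23.9 CPM and PS/E4H mice 28.2, 24.7, 28.3 and 28.5 CPM. Of the PS19 mice 9 of 12 were above all parental mice, and the other 3 fell among them. Lcat rose 1.25-fold (log2 fold change 0.32, SE 0.0626, adjusted p = 0.000737, edgeR). The annotation places the antisense gene Gm16156 over Lcat.

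**Figure D2:**
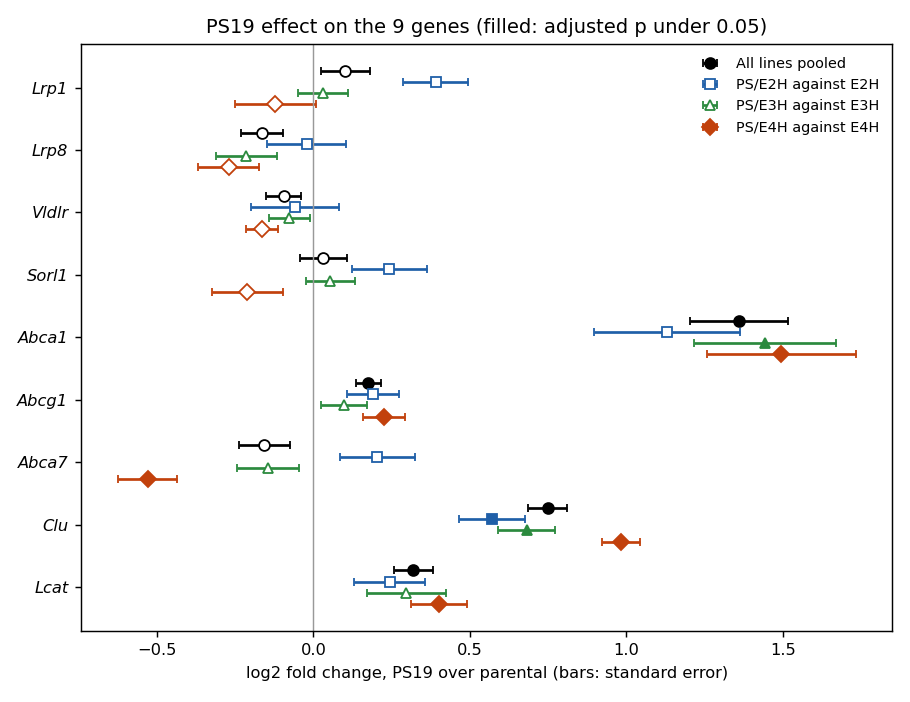
Log2 fold change of PS19 over parental mice for each gene, with its standard error, pooled over lines (black) and within each APOE line (n = 4 against n = 3), filled where the adjusted p was under 0.05. Abca1 and Clu lie to the right in each line, whereas Abca7 is at 0.20 in PS/E2H, -0.15 in PS/E3H and -0.53 in PS/E4H.

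Abca1 and Clu moved with the glial markers. The microglial sum and log2 CPM had r = 0.91 for Abca1 and r = 0.97 for Clu over 21 mice, and r = 0.65 and r = 0.64 after group means were removed. With the astrocyte sum the values were 0.92 and 0.97, and 0.77 and 0.65 within groups. For Abcg1 and Lcat r with the microglial sum was 0.78 and 0.79, and 0.37 and 0.44 within groups. With the astrocyte sum it was 0.82 and 0.77, and 0.65 and 0.30 within groups. Other cell types also had high r over all mice. With the neuronal sum it was -0.77 for Abca1 and -0.85 for Clu, and -0.40 and -0.41 within groups. With the oligodendrocyte sum it was 0.65 and 0.76, and 0.25 and 0.18 within groups. The microglial and astrocyte sums each separate PS19 from parental mice, and their correlations share that contrast. The part of any cell type in the changes of the 4 genes was not tested.

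**Figure D3:**
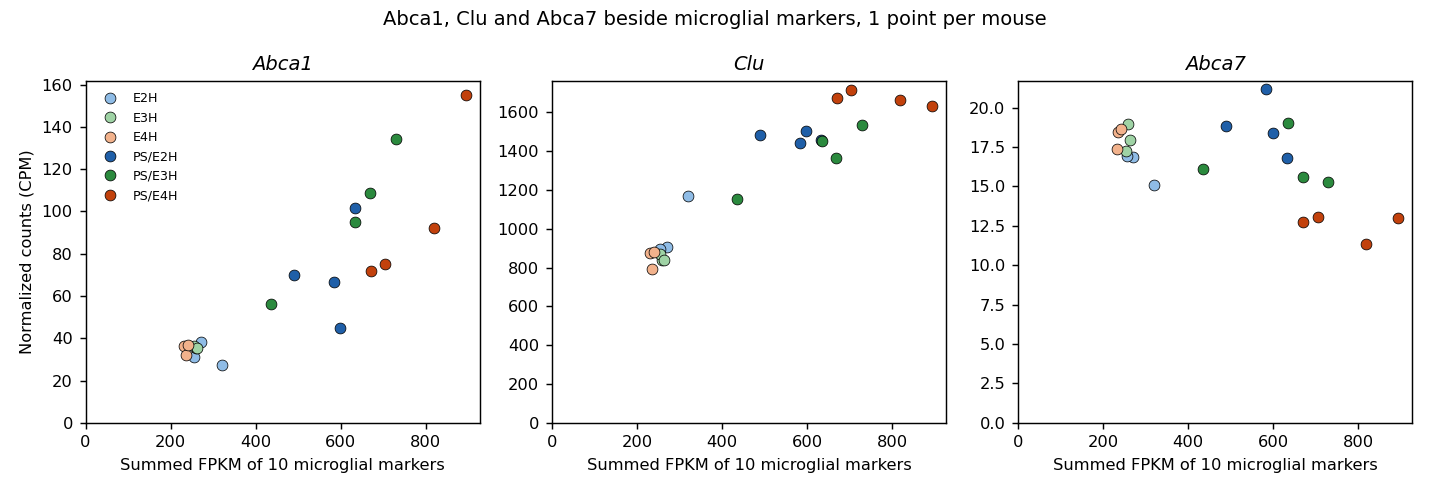
CPM of Abca1, Clu and Abca7 in each mouse against the summed FPKM of 10 microglial markers, both linear from 0, coloured by group. All parental mice sit between 231.6 and 320.1 FPKM on the horizontal axis and all PS19 mice between 434.9 and 894.0, with Abca1 and Clu higher on the right and the 4 PS/E4H mice lowest for Abca7.

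Among the 15634 genes with a mean log2 CPM of at least 0, the patterns most like Abca1 over the 21 mice were those of Tgfbr2 (r = 0.97), Msn (r = 0.97) and Vim (r = 0.97). For Clu they were Ctss (r = 0.98), C1qa (r = 0.98) and Tmem176b (r = 0.98), of which Ctss and C1qa are in the microglial list. Abcg1 was most like Parp3 (r = 0.92), Stat3 and Cp, and Lcat most like Tmbim1 (r = 0.90), Rida and Elovl1. Within groups r was lower, at 0.88 for Abca1 with Tgfbr2, 0.79 for Clu with Ctss and 0.75 for Clu with C1qa. It was 0.86 for Abcg1 with Parp3 and 0.81 for Lcat with Tmbim1.

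With the 6 group means placed in order, Abca1 had 1 step between neighbours that exceeded the larger SD, from E3H at 35.8 to PS/E2H at 70.6 CPM. Clu had 1 from E2H at 991 to PS/E3H at 1377 CPM and another from PS/E2H at 1473 to PS/E4H at 1672 CPM. No step for Abcg1 or Lcat did so, and the parental groups of all 4 genes did not differ beyond their SDs between neighbours.

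Within lines the tests had fewer mice. In the PS/E2H comparison with E2H, 1 of the 9 genes passed, where 0.752% of all tested genes did: Clu rose 1.48-fold (log2 fold change 0.57, SE 0.106, adjusted p = 0.0474, edgeR). Abca1 had a log2 fold change of 1.13 (SE 0.233) and missed the threshold (adjusted p = 0.0665), though its 4 PS/E2H mice were above its 3 E2H mice. Without PS/E2H mouse 2 it passed (1.29, adjusted p = 0.0238). In this line 4 genes had groups that did not overlap, namely Abca1, Clu, Lrp1 and Sorl1, and 11.7% of all genes did. None of the 9 passed with a fold of at least 2 (0.485% of all genes). The call of Clu was lost without 6 of the 7 mice in turn and held only without E2H mouse 2, while its log2 fold change stayed between 0.50 and 0.72.

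In the PS/E3H comparison with E3H, 2 genes passed, against 5.37% of all genes. Abca1 rose 2.72-fold (log2 fold change 1.44, SE 0.226, adjusted p = 0.00944) and Clu rose 1.60-fold (log2 fold change 0.68, SE 0.0907, adjusted p = 0.00448, both edgeR). These and Lcat did not overlap between groups, as for 19.2% of all genes. With a fold of at least 2, 1 passed (1.32% of all genes), and this was Abca1. The call of Abca1 was lost without E3H mouse 1 (adjusted p = 0.0632) or E3H mouse 3 (adjusted p = 0.0583).

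The PS/E4H comparison with E4H gave 5 of the 9 genes, against 15.6% of all genes (8.62% higher, 6.98% lower). Abca1 rose 2.82-fold (log2 fold change 1.495, SE 0.237, adjusted p = 0.00333) and Clu 1.98-fold (log2 fold change 0.98, SE 0.0612, adjusted p = 4.37e-05). With a fold of at least 2 only Abca1 passed (2.98% of all genes). Lcat rose 1.32-fold (adjusted p = 0.0142) and Abcg1 1.17-fold (adjusted p = 0.0438), while Abca7 fell to 0.692 of its E4H level (adjusted p = 0.00592, all edgeR). With each of the 7 mice removed in turn, Abcg1 passed 1 time, Lcat 5 times and the other 3 genes 7 times. The calls of Lcat were lost without E4H mouse 1 (adjusted p = 0.0554) or E4H mouse 2 (adjusted p = 0.0713) or with the offsets for length and GC content added after the data were seen (adjusted p = 0.102), while the call of Abcg1 was lost without any one of the mice but PS/E4H mouse 2 (adjusted p 0.054 to 0.136) and in 4 of 8 other settings. These 5 genes and Vldlr did not overlap between groups, and 28.8% of all genes did not. No test of the difference between lines passed for Abca1, whose tau effect in the APOE4 line exceeded that in the APOE2 line by 0.37 (SE 0.379, adjusted p = 0.776, edgeR).

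Abca7 (ENSMUSG00000035722, chr10:79996494-80015572, plus strand), a phospholipid transporter whose human counterpart is a risk gene for Alzheimer's disease, was the only one of the 9 called lower in a PS19 comparison by edgeR with all mice and no offsets. Its CPM was 16.9, 15.1 and 17.0 in E2H, 19.0, 17.3 and 17.96 in E3H and 17.4, 18.4 and 18.6 in E4H. PS/E2H mice had 21.2, 18.4, 16.8 and 18.8 CPM and PS/E3H mice 16.1, 19.0, 15.6 and 15.3 CPM, whereas PS/E4H mice had 13.0, 12.8, 13.1 and 11.4 CPM. The 4 PS/E4H mice were the lowest of all 21, and the other PS19 groups overlapped their parental groups. In FPKM, PS/E4H was at 1.71 and the other 5 groups were between 2.17 and 2.55.

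The difference in tau effect on Abca7 between the APOE4 and APOE2 lines was -0.73 on the log2 scale (SE 0.135, unadjusted p = 2.25e-05) and did not pass after adjustment (adjusted p = 0.093, edgeR). It ranked 5 of 22863 genes by p in that interaction, in which 0 genes passed, 2610 (11.4%) had an unadjusted p under 0.05 and DESeq2 called 208. DESeq2 called Abca7 there (adjusted p = 0.000149), and with a mouse left out its edgeR adjusted p ran from 0.0508 to 0.269. Among PS19 mice alone, Abca7 in PS/E4H was lower than in PS/E2H by a log2 difference of -0.59 (SE 0.106, adjusted p = 0.0855, edgeR). This passed by DESeq2 (adjusted p = 0.000352), which called 224 of 33251 genes there. It also passed in an edgeR fit of all 6 groups (adjusted p = 0.00142), which called 100 of 22863. Against PS/E3H the log2 difference was -0.39 (SE 0.102, adjusted p = 0.758). Unlike Abca1, Abca7 had r = -0.53 with the microglial sum over 21 mice and r = -0.23 within groups. Most like it was Nipal3 (r = 0.89, within groups 0.48), followed by Caskin1 (within groups 0.58) and Ptpn23 (within groups 0.63).

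None of the receptors passed in an edgeR comparison with all mice and no offsets, though Lrp1, Lrp8 and Vldlr each passed in other settings. DESeq2 called Lrp1 in PS/E2H against E2H (adjusted p = 0.0404), where it called 635 of 33023 genes. In PS/E4H against E4H it called Lrp8 (adjusted p = 0.040) and Vldlr (adjusted p = 0.0324), with 4396 of 33471 genes called. Lrp1 (ENSMUSG00000040249, chr10:127538161-127621148, minus strand), the large endocytic receptor that clears APOE particles, had 238.9, 208.8 and 274.3 CPM in E2H, 334.9, 319.1 and 318.9 CPM in E3H and 281.5, 324.9 and 258.3 CPM in E4H. PS/E2H mice had 310.3, 294.3, 353.1 and 305.3 CPM, PS/E3H mice 297.4, 376.1, 316.1 and 350.3 CPM and PS/E4H mice 329.8, 244.3, 262.2 and 221.3 CPM. E2H was lowest by mean and PS/E3H highest, and no neighbours in the order of the 6 group means differed beyond the larger of their SDs. The pooled PS19 effect was a log2 fold change of 0.10 (SE 0.0794, adjusted p = 0.403, edgeR).

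Sorl1 (ENSMUSG00000049313, chr9:41964720-42124297, minus strand) had group means from 220.7 ± 36.3 CPM in E2H (SD, n = 3) to 278.8 ± 21.4 CPM in PS/E3H (SD, n = 4), again with no neighbours in the order apart beyond their SDs. Its pooled log2 fold change was 0.03 (SE 0.075, adjusted p = 0.817, edgeR). For Lrp8 (ENSMUSG00000028613, chr4:107802261-107876840, plus strand), a receptor for APOE and reelin at synapses, the means ran from 47.2 ± 5.95 CPM in PS/E4H to 61.4 ± 2.85 CPM in E3H. The log2 fold change was -0.16 (SE 0.0678, adjusted p = 0.0867, edgeR), and 0 of 12 PS19 mice were outside the parental range. The low end of that range, 40.7 CPM, was set by E2H mouse 2 alone. All other parental mice were at 50.18 CPM or more, and the median of the PS19 mice was 50.17 CPM. Lrp8 passed without E2H mouse 2 (adjusted p = 0.017), PS/E2H mouse 3 (adjusted p = 0.0379) or PS/E3H mouse 2 (adjusted p = 0.0412, all edgeR).

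Vldlr (ENSMUSG00000024924, chr19:27216484-27254231, plus strand), the paralogue of Lrp8 in reelin signalling, had means from 63.7 ± 7.72 CPM in PS/E2H (SD, n = 4) to 76.01 ± 1.38 CPM in E4H (SD, n = 3). Pooled, its log2 fold change was -0.10 (SE 0.0553, adjusted p = 0.241, edgeR), and it passed only when E2H mouse 2 was left out (-0.13, adjusted p = 0.0254). All 4 PS/E4H mice, between 65.4 and 68.9 CPM, were below all 3 E4H mice, between 74.4 and 76.9 CPM, with a log2 fold change of -0.16 (adjusted p = 0.0578, edgeR). Over the 8 other settings that kept all mice, this change ran from -0.17 to -0.064, and the pooled one from -0.10 to -0.037. The balance of long and short transcripts, described next, did not overlap between E4H and PS/E4H mice either. The annotation places antisense genes over Lrp1, Lrp8 and Sorl1.

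The receptors, which have long transcripts (6627 bases for Lrp8 to 14888 for Lrp1), moved with the balance of long and short transcripts in a library. That balance was taken as the median log2 deviation of 905 genes with transcripts of at least 8000 bases minus that of 3569 genes under 2000 bases. It was -0.59 in E2H mouse 2, -0.44 in PS/E2H mouse 2 and 0.21 to 0.35 in E3H mice. In the APOE4 line every E4H mouse, at 0.097 to 0.319, was above every PS/E4H mouse, at -0.271 to 0.069. In the other lines PS19 and parental mice overlapped. The balance was -0.024 to 0.239 in PS/E3H, -0.439 to 0.084 in PS/E2H and -0.590 to 0.033 in E2H. The PS19 comparison in the APOE4 line therefore also compares libraries that differ in this balance. Over 21 mice its r with log2 CPM was 0.86 for Lrp8, 0.82 for Vldlr, 0.74 for Sorl1 and 0.56 for Lrp1, and within groups 0.76, 0.70, 0.82 and 0.64. Clu, with a transcript of 1810 bases, had r = -0.55, or -0.58 within groups. Abca1 and Abcg1 had r = -0.03 and -0.05 over all mice but 0.54 each within groups. Length alone did not order the genes. Abca7, with 6696 bases, had r = 0.24, or 0.14 within groups, and Lcat, with 1342 bases, had r = -0.49, or -0.06 within groups. With offsets for length and GC content the pooled log2 fold change of Lrp1 was 0.24 (adjusted p = 0.000551) and that of Lrp8 -0.15 (adjusted p = 0.032, both edgeR). Both were past the threshold, as were 5610 of 21753 genes in that fit. Lrp1 in PS/E4H against E4H turned from -0.12 to 0.15 with the offsets (adjusted p = 0.220, edgeR).

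**Figure D4:**
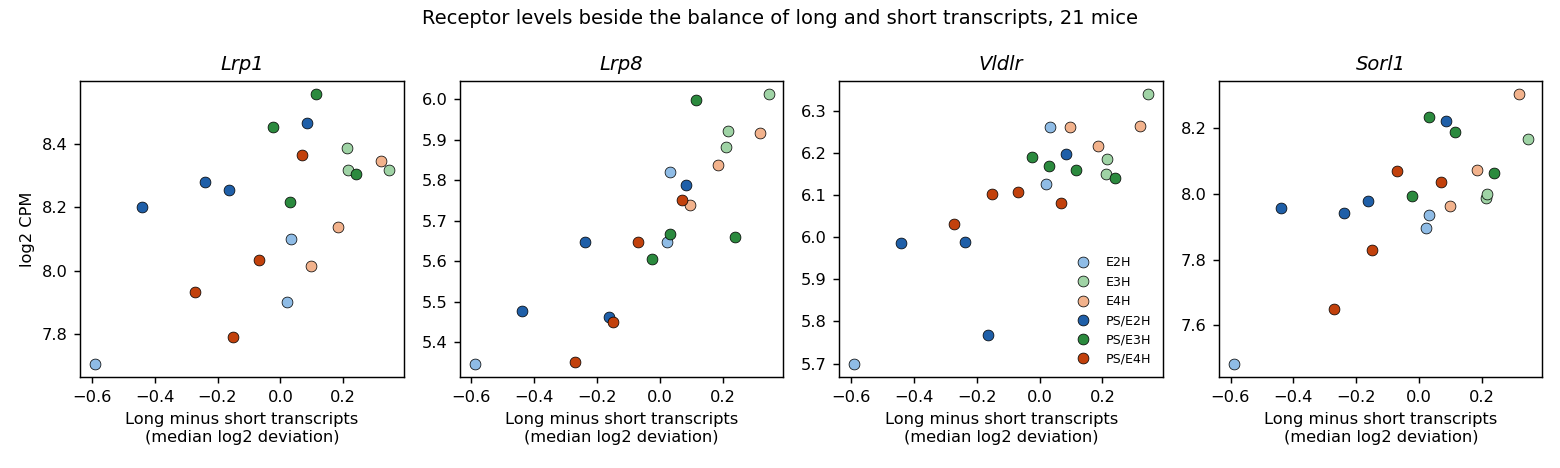
Log2 CPM of the 4 receptors (vertical) against the balance of long and short transcripts (horizontal, log2 units), 1 point per mouse, coloured by group. E2H mouse 2, at -0.59, is the leftmost point and has the lowest value for all 4 receptors, with r from 0.56 for Lrp1 to 0.86 for Lrp8.

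Between APOE alleles, 0 of the 9 genes passed in any of the 6 comparisons when each pair of groups was fitted on its own mice (edgeR), where few genes of any kind did. In parental mice 0.178% of tested genes passed between E2H and E3H, 0.162% between E4H and E3H and 0.216% between E4H and E2H. In PS19 mice the shares were 0.113% for PS/E2H against PS/E3H, 0.0197% for PS/E4H against PS/E3H and 0.119% for PS/E4H against PS/E2H. At an unadjusted p under 0.05 the counts were 2, 0 and 1 of 9 in parental and 0, 4 and 3 of 9 in PS19 mice, in the same order, against 14.1%, 6.67%, 12.4%, 11.7%, 6.51% and 12.3% of all genes. DESeq2 called more genes of any kind. It called 1 of the 9 between E2H and E3H (Lrp1), where it called 599 of 33008 genes. Between PS/E4H and PS/E2H it called 1 of the 9 (Abca7) and 224 of 33251 genes. The edgeR fit of all 6 groups also called Abca7 there (adjusted p = 0.00142), with 100 of 22863 genes called.

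Among the allele comparisons E2H against E3H had the most genes without overlap, 6 of 9, but 23.4% of all genes did the same. Lrp1 was lower in E2H by a log2 difference of -0.43 (SE 0.0992, adjusted p = 0.216, edgeR), which DESeq2 called (adjusted p = 0.00699), and without E2H mouse 2 the difference was -0.34 (adjusted p = 0.109). Lrp8 was at -0.32 (SE 0.116, adjusted p = 0.291), or -0.20 without that mouse, and Sorl1 at -0.27 (SE 0.118, adjusted p = 0.354). With the offsets for length and GC content the difference for Lrp1 was -0.16, and the E2H mice had the lower balance of long transcripts. Between E4H and E3H none of the 9 was without overlap (12.6% of all genes), and between E4H and E2H Clu, Abca7 and Sorl1 were, as were 21.4% of all genes.

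Between PS19 groups, APOE allele could not be told apart from age at paralysis or from sex. Clu in all 4 PS/E4H mice was above all 8 other PS19 mice. Its log2 difference was 0.28 (SE 0.0825, adjusted p = 0.758) from PS/E3H and 0.18 (SE 0.0596, adjusted p = 0.330) from PS/E2H, neither passing by edgeR. Clu, Vldlr and Abca7 did not overlap between PS/E4H and PS/E3H (3.8% of all genes), and Clu and Abca7 did not between PS/E4H and PS/E2H (6.86%). All 9 overlapped between PS/E2H and PS/E3H (5.39%). Abca1 differed between PS/E4H and PS/E2H by 0.47 on the log2 scale (SE 0.264, adjusted p = 0.480), within the spread of the mice. None of the interactions passed by edgeR for any of the 9 genes (0% of all genes). DESeq2 called Abca7 between the APOE4 and APOE2 lines (adjusted p = 0.000149), where it called 208 of 37538 genes. The next smallest edgeR adjusted p values after Abca7 were 0.259 for Clu (0.41, SE 0.129), 0.276 for Lrp1 (-0.51, SE 0.166) and 0.293 for Sorl1 (-0.45, SE 0.161) between the APOE4 and APOE2 lines. Without E2H mouse 2 the value for Clu was 0.27 (adjusted p = 0.542).

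A further 86 genes of the pathway were read in 7 lists, of which 83 genes were tested in the pooled PS19 effect, with 20 higher and 9 lower, against 11.9% higher and 10.4% lower among all genes tested. The count of each list stands beside those same shares, and nothing particular to a list is read from it. Of 11 relatives in the LDL receptor family 2 rose and 1 fell. Lrp5, a Wnt co-receptor, rose from 0.735 ± 0.113 to 1.03 ± 0.188 FPKM (SD, n = 9 and 12; log2 fold change 0.50, SE 0.0963, adjusted p = 0.000604, edgeR). Lrp10 rose by 0.23 and Lrp11 fell by 0.13 on the log2 scale. Among 4 VPS10 sorting receptors, the relatives of Sorl1, only Sorcs3 passed (log2 fold change -0.25, adjusted p = 0.0152).

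Of 13 ligands, chaperones and adaptors of the receptors 5 rose and none fell. Those with the smallest p were the endocytic adaptor Dab2 (log2 fold change 0.44), the sorting nexin Snx17 (0.20), Mylip (0.24), a ligase that targets lipoprotein receptors for degradation, and Lrpap1 (0.13), a chaperone of the receptors. Of 15 other ABC lipid transporters 3 rose and 2 fell, with Abca9 at a log2 fold change of 0.87 and Abcg2 at 0.30, against Abcg4 at -0.19 and Abca8b at -0.26. Of 13 apolipoproteins tested 2 rose, Apod from 91.8 ± 20.4 to 215.8 ± 83.3 FPKM and Apoc1 from 1.41 ± 0.596 to 3.53 ± 0.922 FPKM (SD, n = 9 and 12).

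Of 12 lipases, acyltransferases and lipid transfer proteins 5 rose and 1 fell. Npc2 (log2 fold change 0.72) and Npc1 (0.26) carry cholesterol out of lysosomes, Lipa (0.32) frees it there from esters, and Lpl (0.53) is the lipoprotein lipase. Of 15 liver X receptor and sterol-sensing factors 3 rose and 4 fell: Srebf1 rose by 0.62 and Rxra, the partner of liver X receptors, by 0.34 on the log2 scale, while Insig1 fell by 0.56 and Srebf2, which drives cholesterol synthesis, fell by 0.44. The list medians lay between -0.05 for the VPS10 receptors and 0.23 for the lipases. By line 1 of 82 tested genes rose and 1 fell in PS/E2H, where 0.752% of all genes passed. In PS/E3H 7 of 83 rose and 3 fell (5.37% of all genes passed), and in PS/E4H 13 of 82 rose and 10 fell (8.62% of all genes higher, 6.98% lower). None of the listed genes passed by edgeR between APOE alleles or in an interaction.

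**Figure D5:**
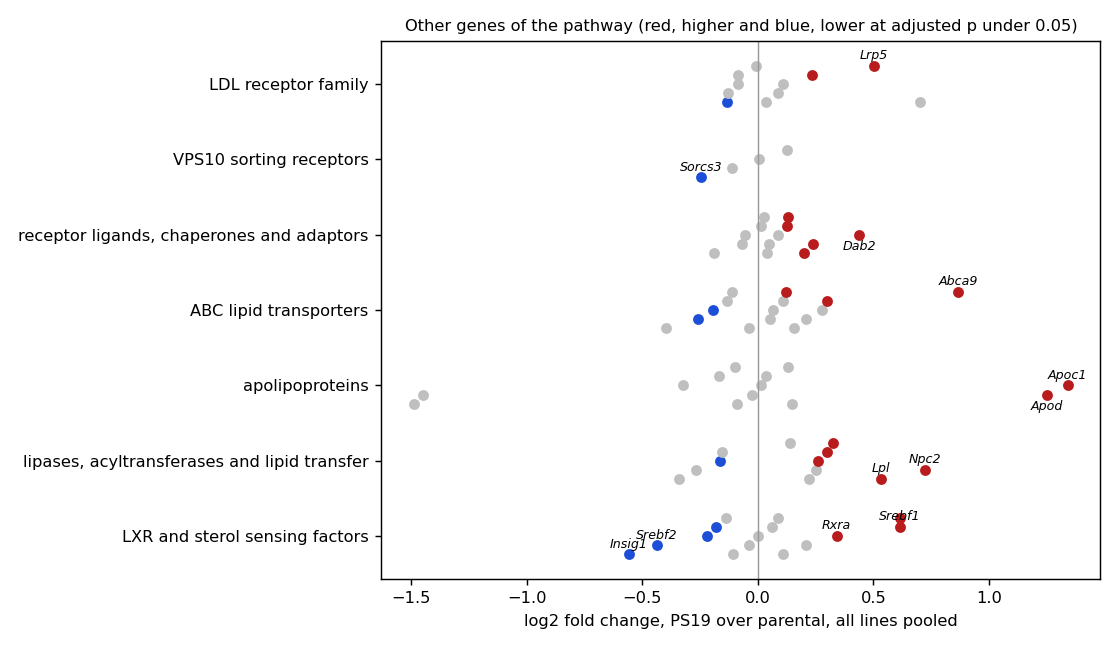
Pooled log2 fold change of PS19 over parental mice for the 83 tested genes of the 7 pathway lists, 1 point per gene, red where higher and blue where lower at an adjusted p under 0.05 (edgeR), grey otherwise. Insig1, at -0.56, is the lowest and Apoc1, at 1.34, the highest of the genes that passed.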

How the data were processed

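Forebrain RNA of 21 mice was measured in stranded poly(A) libraries. The authors trimmed reads with Cutadapt, aligned them with HISAT2 to mouse GRCm38 (GRCm38.p5 in the submitters' processing notes), and used StringTie to assemble and quantify transcripts. Tool versions, and how counts were derived, are not given in the sources used here. The authors deposited counts per gene without normalization, and FPKM values scaled to transcript length and mapped fragments. All columns were mapped to mice by label, and 0 were left over. The labels do not say that mice come from separate litters, so p-values measure the spread between these mice.

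Counts were fitted with edgeR 4.0.16 (TMM, filterByExpr with a minimum count of 10 and minimum total of 15, quasi-likelihood F test) in R 4.3.3 with limma 3.58.1. Each pair of groups was fitted on its own mice, the pooled effect on all 21 with APOE line as covariate, and interactions in a 6-group design. P-values were adjusted by Benjamini-Hochberg over all tested genes, and passed means under 0.05. The standard error is the log2 fold change over the square root of F. The study itself compared groups with DESeq2. Alternatives were DESeq2 1.42.0, its size factors in edgeR, no filter, limma on log2(FPKM + 1) and log2(FPKM + 0.1), a replicate block, the 6-group fit, each mouse left out, and, added after the data were seen, offsets for transcript length and GC content. Scripts were tested on simulated data. Correlations use log2 CPM (log2 marker sums) and carry no p. Per-mouse values and tables used pandas 2.3.3, NumPy 2.4.6 and matplotlib 3.10.9.

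Symbols and positions are from GENCODE M21 (GRCm38), promoters from RefSeq (GRCm38.p6). Named are the 9 genes, up to 4 genes per pathway list with the smallest adjusted p in the pooled effect, and the 3 genes most like each of the 9 by Pearson r. Genes and lists were chosen with earlier results of these data known. Protein tails were not analysed here. Some genes of the pathway are not reported here. At these depths the precision of a value is set by the 3 or 4 mice per group. Mice with the same replicate number did not deviate together (median r -0.027 over 48 pairs), so the numbers were not treated as pairs.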

Additional observations from a re-analysis of the deposited data

Results flagged for a closer look

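In 3 of 27 sets of a gene in a group of 4 mice, 1 mouse lay far from the others by Dixon's criterion, which chance meets in about 1 of 20 groups. Lrp8 was 64.0 CPM in PS/E3H mouse 2, where the other 3 mice were between 48.7 and 50.8 CPM. Sorl1 was 299 CPM in PS/E2H mouse 3, against 246 to 252 CPM in the others. Lcat was 24.7 CPM in PS/E4H mouse 2, against 28.2 to 28.5 CPM.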

How the results depend on the processing

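The pooled calls of Abca1, Clu, Abcg1 and Lcat were kept in all 21 fits that left out a mouse, and the number of the 9 genes passing stayed between 4 and 6 there. With a mouse left out the number passing was 0 to 1 in PS/E2H against E2H, 1 to 3 in PS/E3H against E3H and 3 to 5 in PS/E4H against E4H, and with a fold of at least 2 it was 0 to 1, 0 to 1 and 1 to 2. Shares over all genes with a mouse left out are not reported here, so these counts have no background beside them. In PS/E2H against E2H, where 1 passed, the number was 0 without a filter, 3 by DESeq2, and 2 with the 6-group fit and with the length and GC offsets. Over all genes 70 of 33023, 635 of 33023, 557 of 22863 and 165 of 20587 passed there, in the same order, and 155 of 20617 in the main fit. With a fold of at least 2 the number of the 9 was 1 rather than 0 under DESeq2, the 6-group fit, the offsets and the replicate block. Over all genes 270 of 33023, 208 of 22863, 96 of 20587 and 150 of 20617 passed with that fold, in the same order, against 100 of 20617 in the main fit. DESeq2 called 1 rather than 0 in E2H against E3H, in PS/E4H against PS/E2H and in the difference of tau effect between APOE4 and APOE2, and the 6-group fit 1 in PS/E4H against PS/E2H. Over all genes DESeq2 called 599, 224 and 208 in these comparisons, in the same order, and the 6-group fit 100.

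Blocking on the replicate number gave 2 in PS/E2H against E2H and 2 rather than 5 in PS/E4H against E4H, where Abca7 (adjusted p = 0.0579), Lcat (0.067) and Abcg1 (0.105) missed. Only 6 of 21 mice correlated best with their own number. Signs turned for log2 fold changes near 0: in PS/E2H against E2H, Lrp8 was 0.0077 and 0.012 by limma with a pseudocount of 1 and 0.1 and 0.027 with the block, and Vldlr was 0.021 with the block. Lrp1 in PS/E4H against E4H was 0.15 with the offsets. Over left-out mice Lrp1 in PS/E3H ran from -0.029 to 0.085, Lrp8 in PS/E2H from -0.13 to 0.090, Vldlr in PS/E2H from -0.20 to 0.060 and pooled Sorl1 from -0.016 to 0.083. Clu in PS/E2H missed without a filter (adjusted p = 0.0768). Over all genes, 155 passed in PS/E2H, 1141 in PS/E3H and 3252 in PS/E4H by edgeR. DESeq2 gave 635, 2327 and 4396, no filter 70, 554 and 2195, and the block 246, 529 and 1249. The causes were not tested. The 3 or 4 mice per group limit what could be detected.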

Other observations

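Over the 21 mice, log2 CPM of Lrp1 was most like that of Notch1 (r = 0.91, within groups 0.88), Lrp8 most like Tmem178b (r = 0.90, within groups 0.82), Vldlr most like Selenoi (r = 0.89, within groups 0.86) and Sorl1 most like Ddi2 (r = 0.89, within groups 0.90). Among the receptors r over all mice was highest between Lrp8 and Vldlr (0.75, within groups 0.67) and between Lrp1 and Sorl1 (0.75, within groups 0.63), whereas within groups it was highest between Lrp8 and Sorl1 (0.83) and between Lrp1 and Lrp8 (0.80), and Lrp8 and Clu had r = -0.59. These mice share libraries, groups and the balance of long and short transcripts, so the values are descriptions. Clu and Lcat had r = 0.81 over all mice and 0.33 within groups, and Clu and Abca1 0.82 and 0.19.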
